A study of Homo sapiens with 6 samples.

Results

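The 10 genes described here belong to the BCL2 family: the anti-apoptotic members BCL2, BCL2L1 and MCL1, the effectors BAX and BAK1, and the BH3-only members BCL2L11, PMAIP1, BBC3, BMF and BAD. They were selected by gene name, as 10 of the 26025 genes of the deposited expression table, and all 10 were among the 15013 genes tested, which had 10 or more normalized counts on average. RNA was sequenced from NCI-H1299, an established line of human non-small cell lung cancer. There were 3 libraries of vehicle-treated cells (Ctrl) and 3 of cells given 10 µM norepinephrine (NE) for 48 h. Both groups had first been starved in DMEM for 8 to 12 h and were then held in medium with 2% FBS. Starvation and reduced serum were thus common to all 6 libraries. The vehicle is named DMSO in the sample titles and PBS in the treatment protocol. The labels do not say whether the libraries of a group came from separate cultures, so the p-values measure the spread between libraries of 1 cell line, which may be technical. The study asked how a stress neurotransmitter changes lung cancer cells, and the comparison below asks how the transcripts of the BCL2 family differed between NE-treated and Ctrl cells.

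Proteins of the BCL2 family decide whether the outer membrane of the mitochondrion is opened during apoptosis. BAX and BAK1 form the pores through which cytochrome c leaves, the anti-apoptotic members hold them in check, and BH3-only proteins either neutralize the anti-apoptotic members or activate the effectors. Many BH3-only genes are controlled at the level of transcription: BBC3 (PUMA) and PMAIP1 (NOXA) are induced by cellular stress, and BCL2L11 (BIM) is induced by FOXO factors after withdrawal of growth factors. NE signals through adrenergic receptors to cAMP, PKA and the transcription factor CREB, for which BCL2 and MCL1 have been described as targets.

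Of the 10 members, BCL2L11 rose 3.36-fold in NE-treated cells, and BCL2L1, BBC3, BMF and BAD fell 2.18-fold, 2.54-fold, 2.12-fold and 2.04-fold. MCL1 and PMAIP1 rose by smaller amounts, BAK1 and BAX fell, and BCL2 did not pass the test. The study's methods name an adjusted p under 0.05 and a log2 fold change of 1 or more in either direction, with DESeq2. Its volcano plot names a P value instead. Here the thresholds of the methods were applied to limma, with Benjamini-Hochberg adjustment. By them, 1 of 10 members was called higher and 4 of 10 were called lower, where 7.47% and 6.55% of all tested genes were. Without Ctrl replicate 1 the number called lower was 1, BBC3, beside 5.18% of all tested genes, and without Ctrl replicate 3 it was 5. By adjusted p alone, 3 members were higher and 6 lower, beside 24.6% and 25.5% of all tested genes. The median log2 fold change was -0.91 over the 10 members and 0.0097 over all tested genes. With a trend along exonic GC content removed, as described below, the median over the members was -0.34. In that fit 1 member was called higher and 0 lower, beside 3.43% and 2.66% of tested genes. Before that removal, among the anti-apoptotic members 1 rose, 1 fell and 1 did not pass by adjusted p. Both effectors fell, and of the BH3-only members 2 rose and 3 fell. After it, BCL2L11, MCL1, BCL2L1, BBC3 and BMF still passed by adjusted p, while BAX, BAK1, BAD and PMAIP1 did not.

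Depth was similar throughout, from 16852751 to 17979206 reads on genes per library, but Ctrl replicate 3 stood apart from the other Ctrl libraries. It had 7305 genes at 0 reads, against 4829 and 4833 in Ctrl replicates 1 and 2 and between 3954 and 4416 in the NE libraries. Fold changes also went with exonic GC content: the Spearman correlation was -0.64 across 14955 genes, which share libraries and are not independent. The same trend appeared within Ctrl, at -0.52 between Ctrl replicates 3 and 1. Results are therefore also given with the GC trend of each library removed, and without Ctrl replicate 3. Among the markers of the labelled cell type, KRT8, KRT18 and VIM were abundant. They had 5232 to 14180, 6679 to 24941 and 45300 to 78252 normalized counts, while KRT7 had 16.5 to 68.1. Markers also moved with NE. By limma the log2 fold changes were -1.06 for KRT8, -1.62 for KRT18, -1.40 for KRT7, -0.38 for VIM and 0.64 for CDH2. Their adjusted p lay between 8.24e-05 and 0.0462. With the GC trend removed, KRT8 (-0.62), KRT18 (-1.18) and KRT7 (-0.90) still passed. VIM (-0.23, limma adjusted p = 0.325) and CDH2 (0.16, limma adjusted p = 0.188) did not. The epithelial surface markers EPCAM and CDH1 were at most 4.84, the lung lineage markers NKX2-1 and SFTPB at most 3.87 and the leukocyte marker CD68 at most 2.09, while the endothelial markers PECAM1 and CDH5 ranged from 16.5 to 36.6 and from 0 to 9.80. The part of these markers in the results was not tested. PTPRC, CD3E and SFTPC were not listed in the table used here.

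Promoter windows from RefSeq (GRCh38.p14, 250 bases before to 50 after the start) were found for 9 of the 10 members, 12 windows in all, since BCL2L1, BAD and BMF had 2 each. Both strands were searched for the CREB full site TGACGTCA, its 5-base part TGACG, the E-box CACGTG, to which CLOCK and other basic helix-loop-helix factors bind, and the FOXO motif TGTTTAC. The full site was in 0 of the 12 windows and in 1.85% of all 35116 windows of that length. The 5-base motif, which is part of the full site, was in 7 of the 12, those of BCL2, BAX and PMAIP1, both of BAD, and 1 each of BCL2L1 and BMF, and in 24.6% of all windows. The windows of BAD overlap and share their match. The E-box was in the windows of BAX, with 4 matches, and BBC3, with 1, thus in 2 of the 12 and in 7.26% of all windows. The FOXO motif was in 1 of the 12, that of BCL2L11, and in 3.42% of all windows. Runs around matches are shown for the member that rose most, for both members with E-boxes, and for an anti-apoptotic and a BH3-only member with the CREB 5-base motif. They read 5′ to 3′ on the strand of the gene, with the matched letters of either strand in capitals.
BCL2L11, FOXO motif, chr2:111120665-111120723, plus strand: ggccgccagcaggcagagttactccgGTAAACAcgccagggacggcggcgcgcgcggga
BAX, E-boxes, chr19:48954711-48954874, plus strand: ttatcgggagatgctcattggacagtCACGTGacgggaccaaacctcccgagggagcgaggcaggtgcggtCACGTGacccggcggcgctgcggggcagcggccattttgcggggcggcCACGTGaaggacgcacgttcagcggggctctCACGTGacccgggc
BBC3, E-box, chr19:47232868-47232917, minus strand: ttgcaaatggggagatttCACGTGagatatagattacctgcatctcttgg
BCL2L1, CREB 5-base motif, chr20:31724147-31724177, minus strand: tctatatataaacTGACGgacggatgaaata
PMAIP1, CREB 5-base motif, chr18:59899928-59899958, plus strand: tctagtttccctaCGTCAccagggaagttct
The 5-base CREB motif of BAX overlaps its first E-box. These matches describe letters in a window, and no binding was measured.

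BCL2L1, which encodes BCL-XL and lies on chromosome 20 of hg38 from 31664452 to 31723989, had 4567, 4294 and 2581 normalized counts in Ctrl replicates 1 to 3. In the NE libraries it had 1626, 1722 and 1733. All NE libraries lay below all Ctrl libraries, and Ctrl replicate 3 was the lowest of its group. BCL2L1 fell by 1.13 on the log2 scale (SE 0.194, n = 3 against 3), with a limma adjusted p of 0.00151. With the GC trend removed the log2 fold change was -0.62, with an adjusted p of 0.00319. Counts per gene do not separate the long, anti-apoptotic transcript of BCL2L1 from the short, pro-apoptotic one. Of its 4197 exon bases, 1735 are shared with ABALON, a non-coding gene on the opposite strand. ABALON had 69.3 ± 25.2 (SD, n = 3) normalized counts in Ctrl and, with NE, 39.4 ± 6.83 (SD, n = 3). Reads from shared bases cannot be assigned to either gene, so the level of BCL2L1 per kilobase, used below, may be understated.

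MCL1, a short-lived anti-apoptotic protein that binds BIM and NOXA, lies on chromosome 1 from 150560895 to 150579738. It had 6903, 7037 and 8133 normalized counts in Ctrl and 10769.8, 10291 and 9947 in NE-treated cells. The groups did not overlap, and the spread in each was small beside the difference. MCL1 rose by 0.49 on the log2 scale (SE 0.101, n = 3 against 3; limma adjusted p = 0.00349), a 1.41-fold rise. Its log2 fold change was 0.29 after removal of the GC trend (adjusted p = 0.0361), and with the replicate block added the adjusted p was 0.096.

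BCL2, the founding member of the family, on chromosome 18 from 63123346 to 63320128, was the least abundant of the 10 per length of exon. Its normalized counts were 70.2, 91.3 and 106.8 in Ctrl and 113.6, 135.6 and 97.8 in NE-treated cells. The groups overlapped, since NE replicate 3 lay below Ctrl replicate 3. The log2 fold change was 0.38, with a 95% interval from -0.12 to 0.87 and a limma adjusted p of 0.184. Without Ctrl replicate 3 the log2 fold change was 0.51 and the adjusted p 0.0497. With the GC trend removed it was 0.013.

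**Figure D1:**
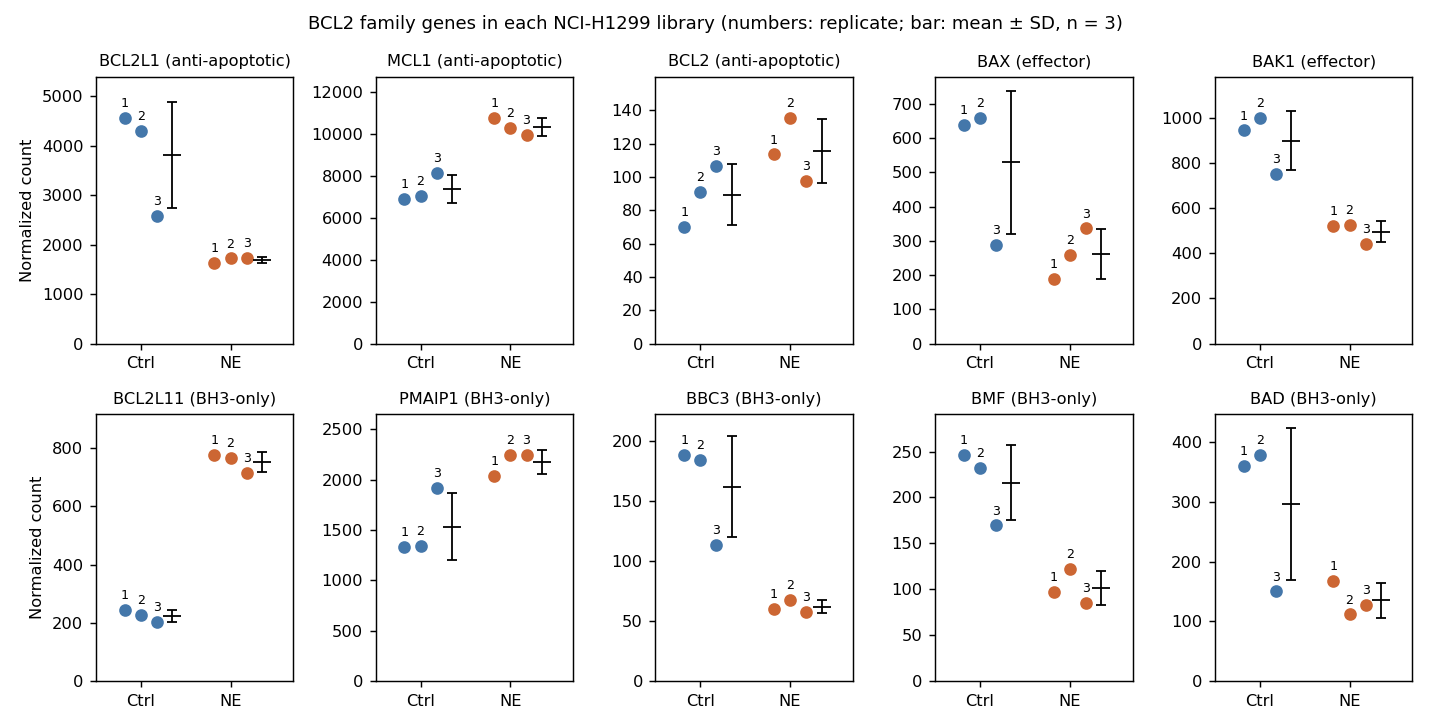
Normalized counts of the 10 BCL2 family genes in each of the 6 libraries, 1 panel per gene, with points for the Ctrl and NE libraries and the group means. The NE libraries of BCL2L11, between 716 and 777, lie far above the Ctrl libraries, between 202 and 244, while for BAX, BAD and BCL2 the groups overlap.

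Per kilobase of merged exon, MCL1 and BCL2L1 stood at a similar level in Ctrl replicates 1 and 2 and apart in the NE libraries. Because the level of BCL2L1 may be understated, the ratios and shares below depend on the exon lengths used. The fold by which the ratio changed between groups does not depend on them. The ratio of MCL1 to BCL2L1 was 1.02, 1.11 and 2.13 in the Ctrl libraries and 4.47, 4.03 and 3.87 in the NE libraries. The MCL1 share of the summed counts per kilobase of the 3 anti-apoptotic members was 50.4%, 52.3% and 67.7% in Ctrl and 81.4%, 79.7% and 79.2% in NE-treated cells. Every NE library lay above every Ctrl library, and Ctrl replicate 3 lay between the other Ctrl libraries and NE. From the fitted log2 fold changes the ratio rose 3.07-fold, and 1.88-fold with the GC trend removed. The summed level of the 3 members was 2098 ± 147 (SD, n = 3) normalized counts per kilobase in Ctrl and, in NE-treated cells, 2074 ± 54.2 (SD, n = 3), a difference smaller than the SD within either group. RNA levels do not give the levels of the proteins, and in bulk RNA a lower count can come from fewer cells that express a gene or from less RNA per cell, which cannot be told apart.

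BAX, an effector that moves from the cytosol to mitochondria, lies on chromosome 19 from 48954815 to 48961798. Its normalized counts were 639.8, 659.5 and 288.1 in Ctrl and 188.7, 258.6 and 336.3 in NE-treated cells. The groups overlapped: Ctrl replicate 3 lay below NE replicate 3, while Ctrl replicates 1 and 2 were well above all NE libraries. The log2 fold change was -0.96 (SE 0.323, n = 3 against 3), with a limma adjusted p of 0.0332. BAX passed when Ctrl replicate 3 or NE replicate 3 was left out and not in the other 4 such fits, where the adjusted p was up to 0.142. The adjusted p was 0.248 after removal of the GC trend and 3.31e-05 without Ctrl replicate 3. BAX is the member whose window holds the 4 E-boxes shown above.

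BAK1, the effector that resides in the outer mitochondrial membrane, lies on chromosome 6 from 33572547 to 33580293. It had 945.6, 1002 and 752.6 normalized counts in Ctrl and 521.7, 525.9 and 441.4 in NE-treated cells. The groups did not overlap. BAK1 fell by 0.85 on the log2 scale (SE 0.143, n = 3 against 3; limma adjusted p = 0.00135), and after removal of the GC trend the log2 fold change was -0.31 with an adjusted p of 0.053. The pseudogene BAK1P1, which is similar in sequence and may share reads, had between 6.92 and 37.3 normalized counts. The summed level of BAX and BAK1 was 675, 708 and 452 normalized counts per kilobase in the Ctrl libraries and 309, 338 and 330 in the NE libraries.

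BCL2L11, which encodes BIM and lies on chromosome 2 from 111119378 to 111168444, had 244, 226.1 and 201.9 normalized counts in Ctrl. In the NE libraries it had 776.7, 767.1 and 715.5. The groups were far apart, with an SD of 21.1 in Ctrl and 32.9 in NE-treated cells. BCL2L11 rose by 1.75 on the log2 scale (SE 0.127, n = 3 against 3; limma adjusted p = 3.8e-05). Ctrl replicate 3 was here the lowest Ctrl library, on the side away from NE. After removal of the GC trend the log2 fold change was 1.69 (adjusted p = 6.4e-06), and over the 19 alternative settings it stayed between 1.65 and 1.81, past an adjusted p of 0.05 in 19. The exons of BCL2L11 share 727 bases with those of MIR4435-2HG, a non-coding gene on the opposite strand. MIR4435-2HG went the other way, from 659.4 ± 35.3 (SD, n = 3) normalized counts in Ctrl to 531.4 ± 3.98 (SD, n = 3) with NE, and had a limma adjusted p of 0.0411. The counts are per gene and merge the splice forms of BIM, which differ in their killing activity. The window of BCL2L11 holds the FOXO match shown above.

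PMAIP1, which encodes NOXA, a BH3-only protein that binds MCL1 in particular, lies on chromosome 18 from 59899996 to 59904305. Its normalized counts were 1335, 1342 and 1921 in Ctrl and 2038, 2243 and 2242 in NE-treated cells. The groups did not overlap, but Ctrl replicate 3 was closer to NE replicate 1 than to the other Ctrl libraries. The log2 fold change was 0.52 (SE 0.15, n = 3 against 3), with a limma adjusted p of 0.0166. PMAIP1 has the lowest exonic GC content of the 10, 40.03%, and with the GC trend removed its log2 fold change was -0.045 (adjusted p = 0.776). It passed when Ctrl replicate 3 or NE replicate 1 was left out and not without any of the other 4 libraries, where the adjusted p was up to 0.0663.

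BBC3, which encodes PUMA and lies on chromosome 19 from 47220822 to 47232766, had 188.5, 184.6 and 113.7 normalized counts in Ctrl and 60.3, 67.8 and 57.6 in NE-treated cells. All NE libraries lay below all Ctrl libraries. BBC3 fell by 1.34 on the log2 scale (SE 0.233, n = 3 against 3; limma adjusted p = 0.00155). With the GC trend removed its log2 fold change was -0.71 (adjusted p = 0.0133). PUMA can bind all the anti-apoptotic members.

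BMF, a BH3-only member that is held at the cytoskeleton in healthy cells, lies on chromosome 15 from 40087890 to 40108892. It had 246.1, 232.3 and 169.5 normalized counts in Ctrl and 96.8, 122 and 84.98 in NE-treated cells. The groups did not overlap, and Ctrl replicate 3 was the lowest of its group. BMF had a log2 fold change of -1.08 (SE 0.208, n = 3 against 3; limma adjusted p = 0.00257), and -0.67 after removal of the GC trend (adjusted p = 0.0167).

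BAD, a BH3-only protein that PKA and AKT keep inactive by phosphorylation, lies on chromosome 11 from 64269830 to 64284704. Its normalized counts were 360.2, 378.5 and 149.9 in Ctrl and 168, 111.4 and 127 in NE-treated cells. The groups overlapped, because Ctrl replicate 3 lay below NE replicate 1. The log2 fold change was -1.03 (SE 0.335, n = 3 against 3), with a limma adjusted p of 0.029. The adjusted p was 0.254 after removal of the GC trend, and BAD passed when Ctrl replicate 3 or NE replicate 1 was left out and not without any of the other 4 libraries, where the adjusted p was up to 0.0979. Its exons share 404 bases with GPR137 on the opposite strand, which had 1226 ± 123 (SD, n = 3) normalized counts in Ctrl and, with NE, 787.5 ± 66.9 (SD, n = 3). The kit does not mark strand, so reads from the shared bases cannot be assigned to either gene.

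**Figure D2:**
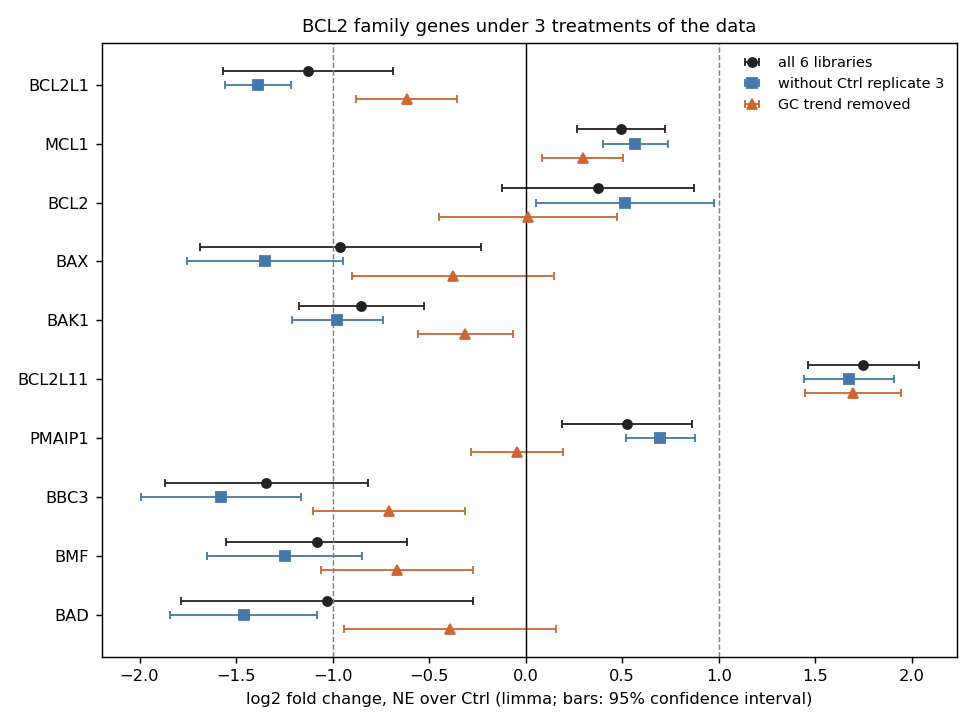
Log2 fold changes of the 10 genes, NE over Ctrl, with 95% intervals from limma, for all 6 libraries, with the GC trend removed and without Ctrl replicate 3. BCL2L11 lies between 1.68 and 1.75 in these fits, whereas the values of BCL2L1 run from -1.39 to -0.62 and those of PMAIP1 from -0.045 to 0.70.

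In all, 3 members had every NE library above every Ctrl library (MCL1, BCL2L11 and PMAIP1) and 4 had every NE library below (BCL2L1, BAK1, BBC3 and BMF), beside 29.7% and 28.9% of all tested genes. For each of these 7 genes the exact permutation test gave p = 0.1, the smallest that 3 libraries against 3 allow. For BCL2, BAX and BAD the exact permutation p was 0.2.

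Ctrl replicate 3 is set beside Ctrl replicates 1 and 2 for each member, and the NE libraries beside the same pair, so both differences share these Ctrl libraries. For BAD, Ctrl replicate 3 differed by -1.29 and NE by -1.46 on the log2 scale, and for BAX by -1.17 and -1.35. For BCL2L1 the values were -0.78 and -1.39, for BBC3 -0.71 and -1.58, for BMF -0.49 and -1.25 and for BAK1 -0.37 and -0.97. They were 0.52 and 0.70 for PMAIP1, 0.41 and 0.51 for BCL2, 0.22 and 0.57 for MCL1, and -0.22 and 1.68 for BCL2L11. Over all tested genes the median shift of Ctrl replicate 3 was 0.0089. Without Ctrl replicate 3, 1 member was called higher and 5 lower, beside 10.7% and 10.1% of all tested genes.

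The members were spread over the range of GC content. Each of the 6 members that fell had an exonic GC content of at least 55.2% (BMF), up to 64.7% (BAD), while BCL2, MCL1 and PMAIP1 lay between 40.03% and 45.5%. The median log2 fold change of tested genes was 0.41 at a GC content of 40 to 45%, 0.0033 at 45 to 50%, -0.56 at 55 to 60% and -0.69 at 60 to 65%. BCL2L11, with 47.4%, belongs to the bin at 45 to 50%, in which the middle part of the genes ranged from -0.36 to 0.39 (quartiles). MCL1, at 0.49 in the same bin, also lay above the upper quartile. In the bin at 55 to 60% BCL2L1 (-1.13) and BMF (-1.08) lay below the lower quartile of -0.85, and in that at 60 to 65% BBC3 (-1.34) and BAD (-1.03) lay below the lower quartile of -0.97. BCL2, PMAIP1 and BAX lay within the quartiles of their bins, and BAK1 lay at its lower quartile. After removal of the trend, BCL2L11 was called higher and 0 members were called lower, beside 3.43% and 2.66% of tested genes, and the median over the members was -0.34. By limma's adjusted p alone, BCL2L11 and MCL1 were then higher and BCL2L1, BBC3 and BMF lower, and 5 members did not pass, beside 13.0% and 19.0% of tested genes. With the trend removed and Ctrl replicate 3 left out, a setting added after the data had been seen, 2 members were higher and 6 lower by adjusted p, beside 19.1% and 23.3% of tested genes, and 1 was called higher and 0 lower, beside 4.16% and 3.58%. What part GC content and Ctrl replicate 3 had in these fold changes was not tested.

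**Figure D3:**
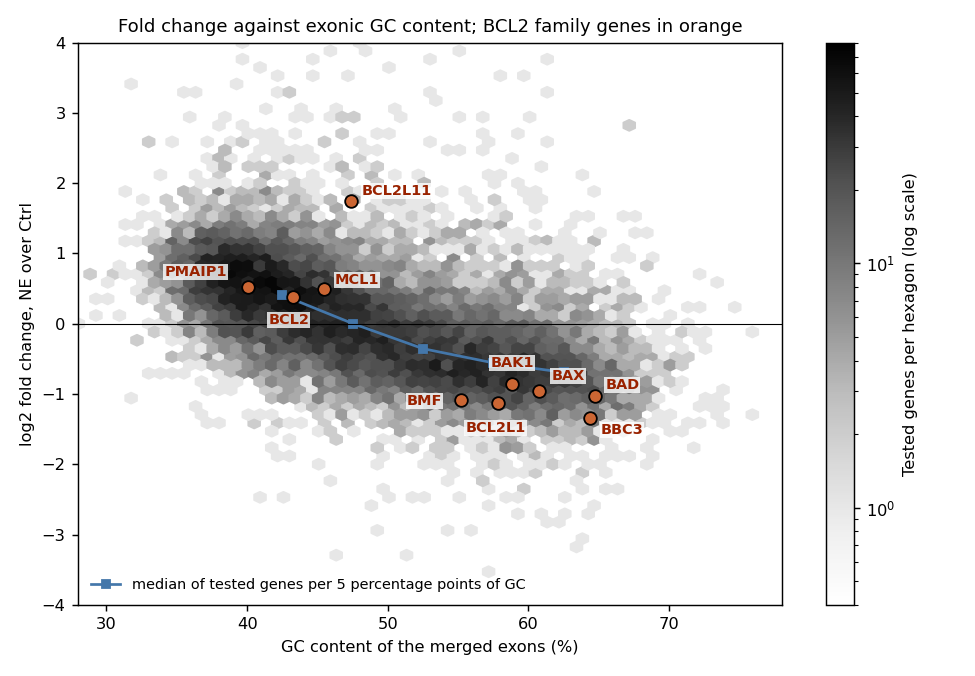
Log2 fold change (NE over Ctrl) against the GC content of the merged exons in percent, with tested genes as grey hexagons shaded by their number, the medians of bins between 40% and 65% as a line, and the 10 genes in orange; genes past the axis limits are not drawn. BCL2L11 stands at 1.75 above a bin whose median is 0.0033, and the other 9 genes lie between -1.34 and 0.52.

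Counts per kilobase of merged exon allow levels to be compared roughly between genes. For BCL2L1, 1735 of the 4197 exon bases are shared with ABALON, so its level may be understated. Whether it lay below MCL1 in Ctrl is therefore not settled by the order given here. In Ctrl the order was MCL1, BCL2L1, PMAIP1, BAK1, BAX, BAD, BBC3, BMF, BCL2L11 and BCL2, from 1183 ± 108 (SD, n = 3) normalized counts per kilobase for MCL1 to 7.09 ± 1.46 (SD, n = 3) for BCL2. Neighbours whose libraries overlapped in Ctrl were BCL2L1 and PMAIP1, BAX and BAD, BBC3 and BMF, and BMF and BCL2L11. In NE-treated cells the order was MCL1, PMAIP1, BCL2L1, BAK1, BCL2L11, BAX, BAD, BBC3, BMF and BCL2, with overlap between BCL2L11 and BAX, BAX and BAD, and BBC3 and BMF. BCL2L11 thus went from rank 9, at 33.2 ± 3.14 (SD, n = 3), to rank 5, at 111.7 ± 4.88 (SD, n = 3) normalized counts per kilobase. BCL2L1 went from 908.8 ± 256 (SD, n = 3) to 403.5 ± 13.9 (SD, n = 3), below PMAIP1 in every NE library.

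**Figure D4:**
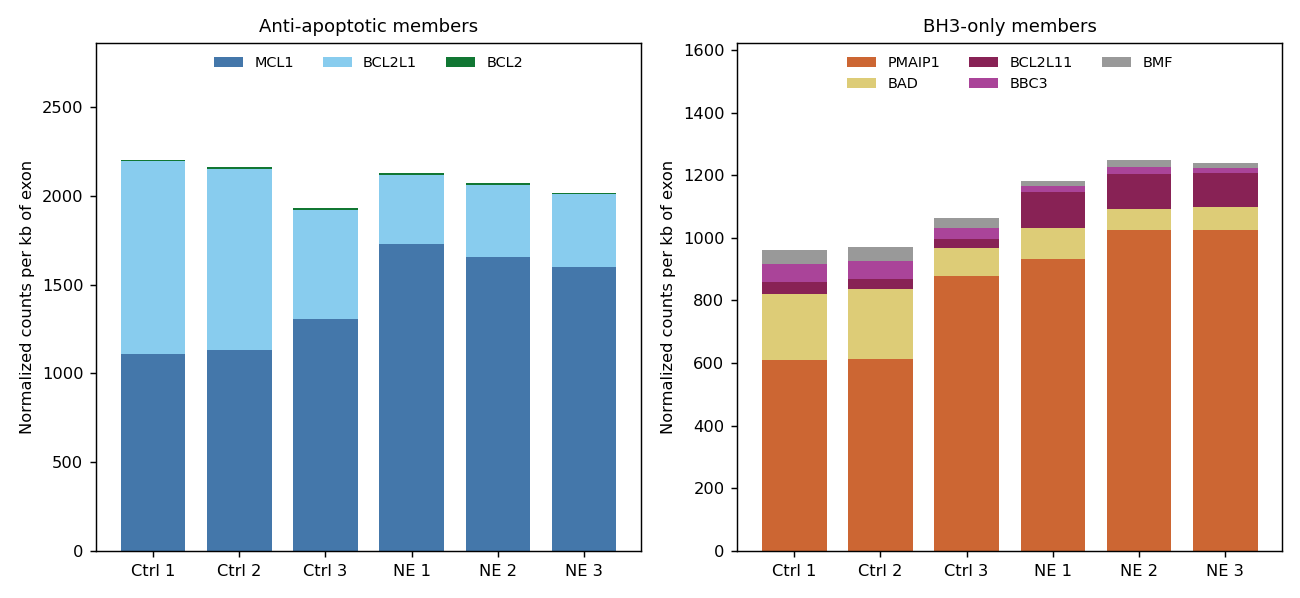
Normalized counts per kilobase of merged exon as stacked bars, with a bar per library, for the 3 anti-apoptotic members (left) and the 5 BH3-only members (right). Among the anti-apoptotic members MCL1 is highest and BCL2 lowest in both groups. The BCL2L11 part of the BH3-only bars is larger in the NE libraries than in Ctrl.

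Among the BH3-only members PMAIP1 made up most of the summed level per kilobase, with 63.5%, 63.3% and 82.6% in the Ctrl libraries and 78.8%, 82.2% and 82.7% in the NE libraries. The BCL2L11 share was 3.76%, 3.46% and 2.82% in Ctrl and 9.74%, 9.11% and 8.56% in NE-treated cells. The sum over the 5 BH3-only members was 998.3 ± 56.3 (SD, n = 3) in Ctrl and, with NE, 1224 ± 35.99 (SD, n = 3). PMAIP1, its largest part, had a log2 fold change of -0.045 with the GC trend removed. The sum was not computed after that removal. Each of these shares and sums uses the lengths of merged exons, which need not be those of the transcripts the cells made.

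Other genes of the pathway were taken from 6 lists of 76 genes in all, of which 74 were in the table and 68 were tested. By limma, 5 of these were called higher and 9 lower, and by adjusted p alone 19 were higher, 28 lower and 21 did not pass, with a median log2 fold change of -0.09. The shares of all tested genes were 7.47% and 6.55% called higher and lower, and 24.6% and 25.5% by adjusted p alone. After removal of the GC trend 3 were called higher and 1 lower, beside 3.43% and 2.66% of tested genes. By adjusted p alone 9 were then higher and 23 lower, beside 13.0% and 19.0%. The counts per list below use adjusted p alone. They are to be read beside 24.6% higher and 25.5% lower, or 13.0% and 19.0% with the GC trend removed. BCL2L14 and FASLG were not listed, and BCL2L10, BCL2L15, CASP10, BIRC7, TNFSF10 and TP63 were under the minimum mean.

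**Figure D5:**
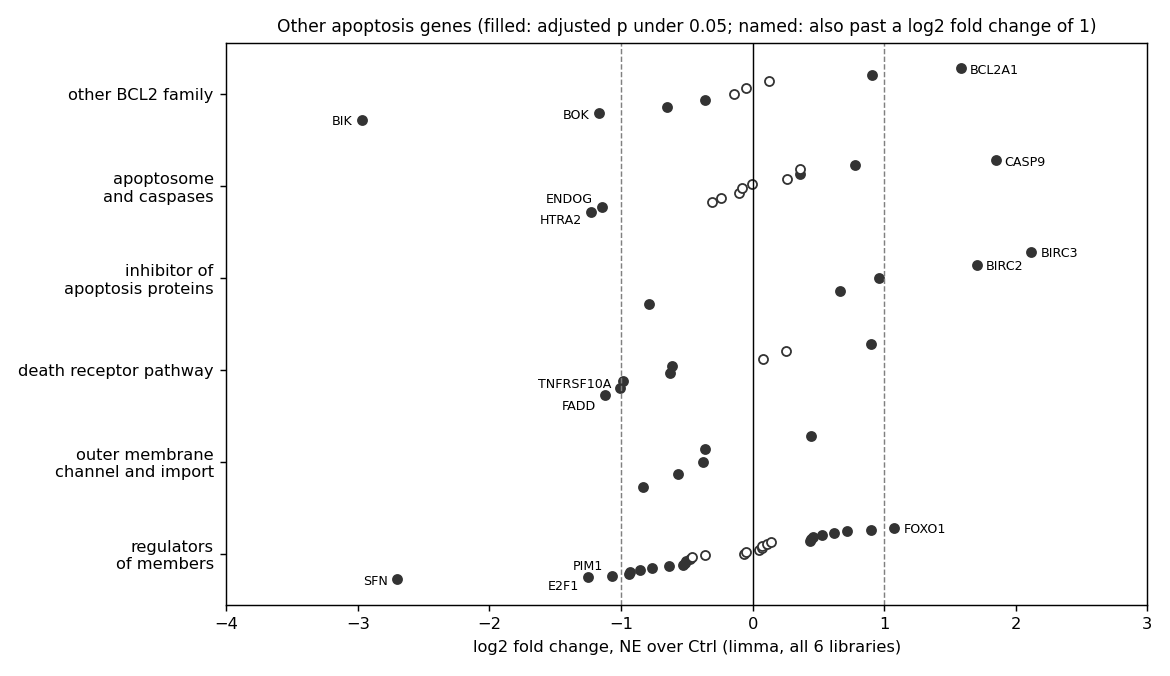
Log2 fold changes (NE over Ctrl, limma, all 6 libraries) of the 68 other tested apoptosis genes by list, filled where the adjusted p was under 0.05 and named where the absolute log2 fold change was also at least 1. CASP9, BIRC2 and BIRC3 lie furthest to the right and BIK and SFN furthest to the left.

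Of 9 other tested BCL2 family genes 2 rose, 4 fell and 3 did not pass, with a median log2 fold change of -0.14. By adjusted p 1 was higher and 4 were lower once the GC trend was removed, with a median of 0.06. BIK, a BH3-only protein of the endoplasmic reticulum, had 90.1, 105.8 and 109.8 normalized counts in Ctrl and 19.8, 4.84 and 17.4 in NE-treated cells. The groups were far apart, and the log2 fold change was -2.97 (limma adjusted p = 0.00092), or -2.53 after removal of the GC trend (adjusted p = 0.00281). BOK, an effector-like member, fell by 1.17 on the log2 scale, and BID, which links death receptors to mitochondria, fell by 0.65. BNIP3L, a mitophagy receptor, rose by 0.91. With the GC trend removed the log2 fold changes of BOK, BID and BNIP3L were -0.52, -0.34 and 0.29. BCL2A1, an anti-apoptotic member, rose from 9.61 ± 3.87 (SD, n = 3) to 29.4 ± 2.50 (SD, n = 3) normalized counts, and its adjusted p was 0.131 after removal of the GC trend. BCL2L13 fell by 0.36 on the log2 scale, and its log2 fold change was -0.59 after removal of the GC trend.

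Downstream of the mitochondrion, 3 of 12 tested genes of the apoptosome and caspase list rose, 2 fell and 7 did not pass, with a median log2 fold change of -0.043. Removing the GC trend gave 1 higher, 6 lower and 5 not past the test, with a median of -0.32. CASP9, the initiator caspase of the apoptosome, had 371.8, 408.6 and 288.1 normalized counts in Ctrl and 1278, 1250 and 1286 in NE-treated cells. Its NE libraries lay close together and far above Ctrl, a 3.60-fold rise (limma adjusted p = 5.2e-05), and the log2 fold change went from 1.85 to 2.19 when the GC trend was removed. APAF1, the scaffold of the apoptosome, rose by 0.78 and CYCS by 0.36 on the log2 scale. With the GC trend removed the value of CYCS was -0.066, and neither passed. HTRA2 and ENDOG, which are released from mitochondria, fell, the former at a log2 fold change of -1.23 and the latter at -1.15. Removing the GC trend gave -0.87 for HTRA2 (limma adjusted p = 0.000221) and -0.49 for ENDOG, which no longer passed (adjusted p = 0.14). Both share exon bases with genes on the opposite strand.

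The inhibitor of apoptosis list held 5 tested genes, of which 4 rose and 1 fell, with a median log2 fold change of 0.96. Once the GC trend was removed 3 were higher and 1 lower. BIRC3 (cIAP2), an E3 ligase of TNF signalling, had 1663, 1822 and 2471 normalized counts in Ctrl and 10150.2, 8287 and 7321 in NE-treated cells. BIRC2 (cIAP1), its neighbour on chromosome 11, rose 3.26-fold, from 809 ± 178 (SD, n = 3) to 2602 ± 73.6 (SD, n = 3). After removal of the GC trend the log2 fold changes of BIRC3 and BIRC2 were 1.41 and 1.09, against 2.12 and 1.71 before it, and both still passed. XIAP, which blocks caspases directly, had a log2 fold change of 0.67, and 0.09 after that removal. BIRC6 rose by 0.96 on the log2 scale, and BIRC5 (survivin), which also serves in mitosis, fell by 0.79. With the GC trend removed the log2 fold changes of BIRC6 and BIRC5 were 0.50 and -0.61.

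Of 8 tested death receptor genes 1 rose, 5 fell and 2 did not pass, with a median log2 fold change of -0.62. With the GC trend removed 0 were higher by limma's adjusted p and 3 lower. FADD, the adaptor of death receptors, fell 2.18-fold, and TNFRSF10A, a receptor for TRAIL, fell 2.01-fold. Their log2 fold changes went from -1.12 to -0.62 and from -1.01 to -0.78 when the GC trend was removed. FAS rose by 0.90 on the log2 scale, but its adjusted p was 0.131 after removal of the GC trend. TRADD, TNFRSF1A and TNFRSF10B fell by 0.98, 0.62 and 0.61 on the log2 scale, and with the GC trend removed the first of these had an adjusted p of 0.23, TNFRSF1A 0.118 and TNFRSF10B 0.0269. In the list of outer membrane channels and import proteins 1 of 5 rose and 4 fell, with a median of -0.38, or -0.82 with the GC trend removed. TOMM22, a receptor of the import complex through which BAX has been described to dock, fell by 0.83, and VDAC2, which holds BAK1 at the membrane, by 0.57 on the log2 scale. VDAC1 and VDAC3 fell by 0.38 and 0.36. TOMM20 had a log2 fold change of 0.45 with all libraries, and -0.11 after removal of the GC trend.

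Of 29 tested regulators of the members 8 rose, 12 fell and 9 did not pass, with a median log2 fold change of -0.064. Removing the GC trend left 4 higher and 5 lower, and 20 did not pass. FOXO1, a forkhead factor, rose 2.11-fold, from 71.0 ± 16.7 (SD, n = 3) to 148.9 ± 15.0 (SD, n = 3) normalized counts. E2F1, PIM1 and TP73 fell by 1.25, 1.07 and 0.93 on the log2 scale. With the GC trend removed their log2 fold changes were -0.65, -0.62 and -0.33, and TP73 did not pass. SFN, a 14-3-3 protein, had low counts, between 12.7 and 32.1 in the Ctrl libraries and between 0 and 4.57 in the NE libraries, with a log2 fold change of -2.70 (limma adjusted p = 0.0193), and -2.09 with the GC trend removed (adjusted p = 0.0674).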

How the data were processed

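RNA of 3 Ctrl and 3 NE libraries of NCI-H1299 was measured, and the letter and number of each table column gave its group and replicate. The authors aligned reads to hg38 with HISAT2 2.0.5 and counted them per gene with featureCounts 1.5.0-p3. FPKM is named in the study's methods. The deposited signal instead equals reads per gene over a constant of each library: with this constant taken out, 100% of values were whole reads (tolerance 0.001 reads), with 16852751 to 17979206 reads per library. Without molecular identifiers, counting error understates the true error. The strand setting is not given in the sources used here.

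limma 3.58.1 (R 4.3.3, eBayes with trend) was run on log2(value + 1) for 15013 genes, those whose mean was 10 or more. On this scale the change of low genes is understated. Adjusted p is Benjamini-Hochberg over all genes tested, and the normalized count is the deposited value. edgeR 4.0.16 on the recovered reads called 1057 genes higher and 1096 lower. GC content and exon length came from merged exons of GENCODE v44 (25813 of 26025 identifiers matched), and the GC trend was fitted in each library as a natural spline (5 degrees of freedom). The members and lists were chosen with earlier results of these data known. All members were named, and of each other list up to 6 genes with an adjusted p under 0.05, in order of absolute log2 fold change, besides genes not tested. A gene that meets this rule is not reported here. Alternatives were other pseudocounts, filters, scalings, eBayes settings, a replicate block, DESeq2 1.42.0, GC correction and leaving out each library. The scripts were tested on simulated data.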

Additional observations from a re-analysis of the deposited data

How the results depend on the processing

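Removing the GC trend left 513 genes called higher and 398 lower over all genes (438 and 360 with the replicate block, 622 and 535 without Ctrl replicate 3), 0 members called lower under each of these, 3 members lower by adjusted p (3 with the block), 1 member higher by adjusted p with the block, and 3 other apoptosis genes called higher (3 with the block) and 1 lower in all of these. Without the fold criterion 3 members were higher. Leaving out 1 library at a time gave 777 to 1512 genes lower and 816 to 1609 higher, the upper ends without Ctrl replicate 3, 1 (without Ctrl replicate 1) to 5 members called lower, and 4 to 9 other apoptosis genes called higher, 9 without Ctrl replicate 3. Direction reversed for PMAIP1 (-0.045), CYCS (-0.066) and TOMM20 (-0.11) on the log2 scale with the GC trend removed, with and without the block, and for CYCS (-0.061) and TOMM20 (-0.022) also with Ctrl replicate 3 left out, a setting chosen after seeing the data. The cause was not tested. Of the other alternative values of single genes 731 kept their direction and their side of an adjusted p of 0.05, 75 kept the direction but no longer passed it, and 1, BCL2 without Ctrl replicate 3, newly passed it; the fold criterion is not part of these counts. The replicate block gave 1049 genes higher and 924 lower, and 5 members lower by adjusted p, with BAX lost. Deviations of libraries with the same number correlated at -0.163, 0.0799 and -0.151, and not every library correlated best with its own number. These values gave no clear pairing by number, but with 3 libraries per group they cannot exclude one. Among the members BBC3 and BCL2 rested on the fewest reads, 61 to 180 and 67 to 140 per library.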
